A study of Mus musculus with 4 samples.

Results

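The miRNAs miR-21a, miR-146a, miR-146b, miR-155 and miR-210 are widely studied as markers of inflammation, tissue injury and low oxygen. They were followed here in interstitial cells of Cajal (ICC), the Kit-positive pacemaker cells of the gut muscle layer. The members were all entries of the deposited miRNA table that are named for either arm of these 5 hairpins, and 8 of the 982 entries matched. Of the 8, 4 averaged 10 CPM or more and entered the tests (mmu-miR-146a-5p, mmu-miR-21a-5p, mmu-miR-146b-5p and mmu-miR-155-5p, written without the prefix from here on). The other 4 lay under that level (miR-210-3p, miR-210-5p, miR-21a-3p and miR-146a-3p). CPM are counts per 1000000 miRNA counts of a library, after a TMM correction (trimmed mean of M-values) for composition.

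GFP-positive cells were sorted from jejunum or colon of C57BL/6 mice aged 11 to 20 weeks, and small RNA was sequenced. The groups were Lep ob/ob jejunum, Lep ob/+ jejunum, Lep ob/ob colon and Lep ob/+ colon, with 1 library each. The ob/ob mice lack functional leptin and are called diabetic in the labels, while ob/+ mice carry 1 mutant Lep copy and are called healthy or wild type. All 4 groups also carried KitcopGFP/+, a green fluorescent reporter at 1 Kit allele, so that no group had an unmodified Kit locus. Each library was a pool (15 each, per the labels), so the spread between animals is unknown and all intervals cover counting error only. No list of miRNAs used here defines ICC, so the labelled cell type was not checked. The smooth and striated muscle list, led by miR-145a-5p and miR-143-3p, summed to 346382, 251155, 244812 and 212109 CPM in the order of groups above. In the same order, the libraries held 433201, 466335, 267077 and 716476 miRNA counts, and 1 count was worth 2.37, 2.28, 3.15 and 1.52 CPM.

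A miRNA is cut from a hairpin and guides the silencing complex to messenger RNAs that pair with its seed, bases 2 to 8 from the 5′ end. Transcription of the miR-146a gene is induced by NF-kappaB, and miR-146a in turn represses the signalling proteins Traf6 and Irak1 in a negative feedback loop. miR-155, processed from the non-coding transcript Mir155hg, rises in activated leukocytes, and miR-210 is induced by hypoxia-inducible factor. miR-21 represses Pdcd4 and is raised in many fibrotic and inflamed tissues.

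The mature sequences are printed because seeds and near-identity decide how these counts can be read. They come from RefSeq (GRCm38.p6), in which all 8 members matched. Capitals mark the seed.
miR-146a-5p: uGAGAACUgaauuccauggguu
miR-146b-5p: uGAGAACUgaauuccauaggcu
miR-21a-5p: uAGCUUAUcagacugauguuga
miR-21c: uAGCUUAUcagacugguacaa
miR-155-5p: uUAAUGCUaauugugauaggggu
miR-210-3p: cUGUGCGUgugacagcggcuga

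miR-146a-5p and miR-146b-5p share their seed with no other of the 1679 mature mouse miRNAs of that table. They are identical at 20 of 22 positions and over the first 17 bases, and they differ by G18A and U21C, counted from the 5′ end of miR-146a-5p. miR-21a-5p shares its seed with miR-21c, with the first 15 bases in common. The seeds of miR-155-5p and miR-210-3p occurred in no other entry.

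The hairpins of the miR-146 pair are shown to place the near-identical 5p arms, set in capitals, in their precursors.
Mir146: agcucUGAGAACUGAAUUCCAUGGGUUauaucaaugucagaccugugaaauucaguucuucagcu
Mir146b: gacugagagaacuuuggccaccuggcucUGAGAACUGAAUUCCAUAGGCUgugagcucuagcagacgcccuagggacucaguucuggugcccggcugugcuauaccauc

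Compared base by base from their 5′ ends, with no shift or gap allowed, the 3p arms of these 2 hairpins were identical at 4 of 22 positions, against 20 of 22 for the 5p arms. Mir146 (chromosome 11, minus strand) lies between genes in the GENCODE annotation of GRCm38, and Mir146b (chromosome 19, plus strand) lies in an intron of Mfsd13a. Mir21a (chromosome 11, minus strand) overlaps an annotated exon of Vmp1 on the same strand, Mir155 (chromosome 16, plus strand) an exon of Mir155hg, and Mir210 (chromosome 7, minus strand) lies between genes.

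The deposited values of the pair were fractional in all 4 libraries. miR-146a-5p had 979.5 estimated counts in ob/ob jejunum and 409.5 in ob/+ jejunum, and 522.5 in ob/ob colon and 701.5 in ob/+ colon. miR-146b-5p had 89.5 and 99.5 in ob/ob and ob/+ jejunum, and 39.5 and 127.5 in ob/ob and ob/+ colon. The sums of both were whole in all 4 libraries (within 1e-06): 1069, 509, 562 and 829. Likewise miR-21a-5p had 649.5 in ob/+ jejunum, and miR-21c 0.5 there and 0 in the other libraries. How the counts of near-identical miRNAs were divided is therefore uncertain, and the pair is also given as a sum.

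Together the 8 members took a small share of the miRNA counts: 0.328% in ob/ob jejunum and 0.253% in ob/+ jejunum, and 0.297% in ob/ob colon and 0.215% in ob/+ colon. miR-146a-5p was the most abundant member in 3 libraries. It ranked 36th of the 982 entries in ob/ob jejunum and 42nd in ob/ob colon, against 53rd in ob/+ jejunum and 49th in ob/+ colon. miR-21a-5p ranked 61st and 60th in ob/ob jejunum and colon, against 41st and 50th in ob/+. In ob/+ colon these 2 neighbours had overlapping counting intervals (Poisson 95%), 988 to 1147 CPM for miR-146a-5p and 954 to 1111 CPM for miR-21a-5p. miR-146b-5p followed at ranks between 109 and 128 and miR-155-5p between 187 and 240.

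**Figure D1:**
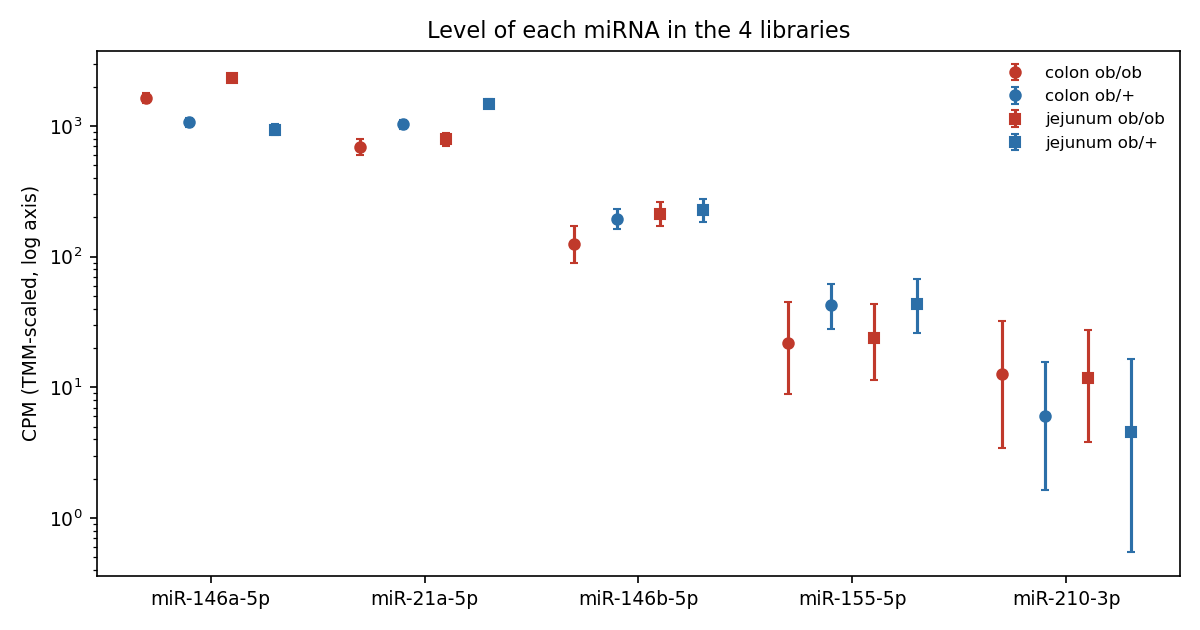
Level of 5 members in the 4 libraries, in TMM-scaled CPM on a log axis; points are single libraries (circles colon, squares jejunum) and bars are Poisson 95% counting intervals. miR-146a-5p sits at 1644 and 2325 CPM in ob/ob colon and jejunum, above its 1065 and 935 CPM in ob/+, and miR-21a-5p shows the opposite order.

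The question put by the design was which miRNAs of ICC differ with leptin deficiency. miR-146a-5p stood at 2325 CPM in ob/ob jejunum, against 935 CPM in ob/+ jejunum, and at 1644 CPM in ob/ob colon, against 1065 CPM in ob/+ colon. Both ob/ob libraries lay above both ob/+ libraries, an order that was not counted over all entries. Within jejunum the ratio was 2.48-fold (log2 1.31, exact conditional binomial 95% interval 1.15 to 1.48), and within colon 1.54-fold (0.62, 0.46 to 0.79). Over both tissues the log2 change was 0.97 ± 0.25 (SE from the F statistic, adjusted p = 0.0606), which missed the threshold of 0.05 (edgeR, quasi-likelihood, adjusting for tissue). With 1 library left out it ranged from 0.72 to 1.34, at 1.03 without ob/+ jejunum and 1.09 without ob/+ colon. Over all alternatives its adjusted p (edgeR or DESeq2) lay between 0.000300 and 0.777. The sum of miR-146a-5p and miR-146b-5p gave 0.81 (edgeR, adjusted p = 0.0808).

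miR-21a-5p went the other way, at 792 CPM in ob/ob jejunum, against 1483 CPM in ob/+ jejunum, and 693 CPM in ob/ob colon, against 1031 CPM in ob/+ colon. Both ob/ob libraries lay below both ob/+ libraries, again with no count of such an order over all entries. It was 1.87-fold lower in jejunum (log2 -0.90, interval -1.10 to -0.71) and 1.48-fold lower in colon (-0.57, -0.80 to -0.35), and over both tissues the change of -0.74 ± 0.22 did not pass (edgeR, adjusted p = 0.0795). With 1 library left out it ranged from -0.995, without the ob/+ colon library, to -0.33, without the ob/+ jejunum library. In the authors' deposited table the ratio of ob/ob over ob/+ was 0.492 in the small intestine and 0.711 in colon for miR-21a-5p, and 2.29 and 1.63 for miR-146a-5p. The deposited small intestinal ratio of miR-21a-5p is past 2-fold, which its jejunal value scaled by TMM is not.

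miR-146b-5p did not follow its seed partner. It stood at 214 CPM in ob/ob jejunum, against 228 CPM in ob/+ jejunum, and at 126 CPM in ob/ob colon, against 194 CPM in ob/+ colon. The jejunal interval spanned no difference (log2 -0.09, -0.52 to 0.33), while the colonic one did not (-0.61, -1.18 to -0.10). Over both tissues the change was -0.35 ± 0.29 (edgeR, adjusted p = 0.417). It turned to 0.15 without the ob/ob colon library and was -0.74 at the other end of the range with 1 library left out.

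miR-155-5p was scarce, with 10 counts in ob/ob jejunum and 19 in ob/+ jejunum, and 7 in ob/ob colon and 28 in ob/+ colon. These counts correspond to 23.7 and 43.4 CPM in ob/ob and ob/+ jejunum and to 22.0 and 42.5 CPM in ob/ob and ob/+ colon. Both ob/ob libraries were lower, but both counting intervals spanned no difference (log2 -0.76, -2.14 to 0.31 in jejunum, and -0.83, -2.39 to 0.28 in colon). Over both tissues the change was -0.90 ± 0.39 (edgeR, adjusted p = 0.157).

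The hypoxia miRNA miR-210-3p had 5 counts in ob/ob jejunum and 2 in ob/+ jejunum, and 4 each in ob/ob and ob/+ colon. A genotype difference was not detectable at this depth: the log2 interval was -1.23 to 4.77 in jejunum and -1.37 to 3.48 in colon. Both miR-210-5p and miR-21a-3p had 1 count, in ob/+ colon, and miR-146a-3p had 1, in ob/ob jejunum. A count of 0 allows up to 8.75, 8.42, 11.6 and 5.60 CPM in the order of groups above (upper end of the Poisson 95% interval, 3.69 counts per library). miR-146a-5p thus made up 99.9% to 100% of the counts of both its arms, with a lowest exact binomial 95% bound of 99.1%, and miR-21a-5p did likewise, with a lowest bound of 98.3%.

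In edgeR's test 0 of the 4 members tested passed at an adjusted p under 0.05, where 18% of all 322 entries did (7.76% higher and 10.2% lower, 58 entries in all, but 2 when either ob/ob library, jejunal or colonic, was left out). At an unadjusted p under 0.05 there were 2 of 4, miR-146a-5p and miR-21a-5p, against 40.4% of all entries, and DESeq2 called the same 2. The median log2 change of the 4 was -0.54, beside -0.12 over all 322. In jejunum 1 of 4, miR-146a-5p, was at least 2-fold higher, where 14.6% of all entries were, and 0 of 4 at least 2-fold lower, where 18% were. In colon the counts were 0 higher and 0 lower, where 17.1% and 17.4% of all entries were.

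Scaling mattered for direction. miRNAs made up 12.3% of the mappable reads in ob/ob jejunum and 22.5% in ob/+ jejunum, and 10.6% in ob/ob colon and 26.3% in ob/+ colon. Set against all mappable reads, miR-146a-5p had 279 counts per 1000000 in ob/ob jejunum and 198 in ob/+ jejunum, but 208 in ob/ob colon and 257 in ob/+ colon, so that its colonic difference turned to -0.31 (log2) and that over both tissues to 0.09. On this scale, on which the median change of all entries shifted from -0.12 to -0.99, miR-21a-5p, miR-146b-5p and miR-155-5p passed as lower in ob/ob (log2 changes -1.62, -1.22 and -1.76).

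**Figure D2:**
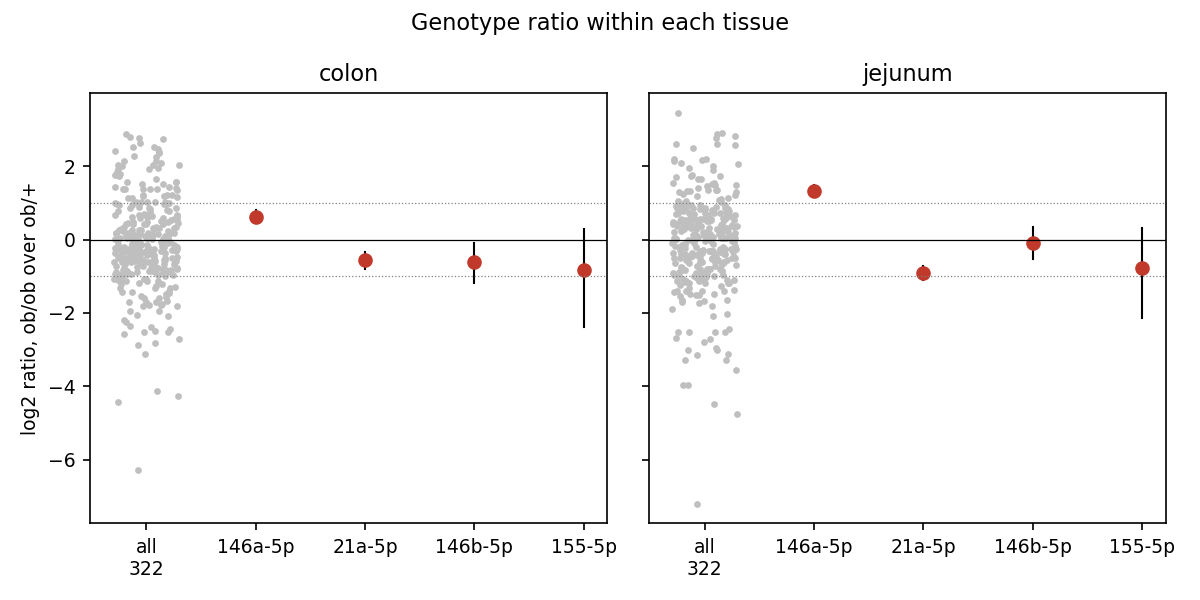
Log2 ratio of ob/ob over ob/+ within colon (left) and jejunum (right); grey dots are all 322 tested entries, red points the members with exact conditional binomial 95% counting intervals, and dotted lines mark 2-fold. miR-146a-5p lies above 0 at 0.62 and 1.31, and the other 3 members lie below 0 in both tissues.

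Ratios between members within a library do not depend on scaling. There were 2.93 counts of miR-146a-5p per count of miR-21a-5p in ob/ob jejunum and 0.631 in ob/+ jejunum, an odds ratio of 4.65 (exact 95% interval 3.89 to 5.56). In colon there were 2.37 in ob/ob and 1.03 in ob/+, an odds ratio of 2.29 (1.89 to 2.79). Both ob/ob libraries thus held more miR-146a-5p relative to miR-21a-5p than both ob/+ libraries. The pair had moved in opposite directions in the values above, so this is no separate result. For miR-146b-5p relative to miR-21a-5p the odds ratio was 1.75 (1.26 to 2.43) in jejunum. In colon its interval spanned no difference (0.965, 0.638 to 1.44). For miR-21a-5p relative to miR-155-5p the intervals spanned no difference (odds ratios 0.976, 0.426 to 2.38, in jejunum and 1.30, 0.543 to 3.56, in colon).

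The make-up of the miR-146 seed family differed between the ob/ob and ob/+ libraries, with the uncertain division of near-identical reads given above. It restates the counts of the pair and is no separate result. miR-146a-5p took 91.6% of the pair's counts in ob/ob jejunum (exact binomial 95% interval 89.8 to 93.2) and 80.4% in ob/+ jejunum (76.7 to 83.8). In colon it took 92.9% in ob/ob (90.4 to 94.9) and 84.6% in ob/+ (81.9 to 87.0). The intervals of the ob/ob libraries did not overlap those of the ob/+ libraries in either tissue, which is a comparison of these libraries and no test between animals.

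**Figure D3:**
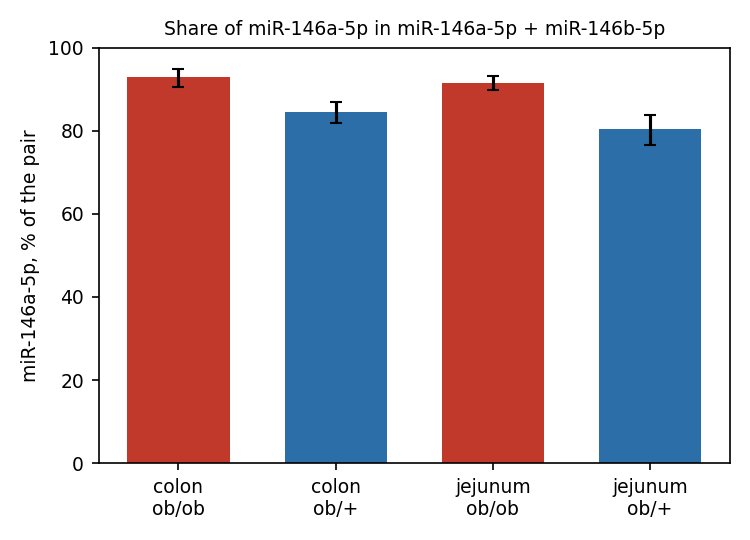
Share of miR-146a-5p in the summed counts of miR-146a-5p and miR-146b-5p in each library, in percent from 0 to 100, with exact binomial 95% counting intervals. Both ob/ob libraries lie above 91%, at 92.9% in colon and 91.6% in jejunum, and both ob/+ libraries below 85%, at 84.6% and 80.4%.

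No tested member passed between the tissues. Comparing colon with jejunum over both genotypes, edgeR called 0 of the 4 members and 0% of all 322 entries (0 of 4 members and 4.35% of entries at an unadjusted p under 0.05), and DESeq2 called 0 members. The log2 changes of colon over jejunum were -0.16 ± 0.25 for miR-146a-5p, -0.37 ± 0.22 for miR-21a-5p, -0.47 ± 0.29 for miR-146b-5p and -0.05 ± 0.38 for miR-155-5p (edgeR, adjusted p of 0.951 or more). No member was 2-fold different between the tissues of either genotype (0 of 4, where 4.97% of entries were higher and 2.8% lower in ob/ob, and 3.73% and 8.07% in ob/+). miR-21a-5p was lower in colon than in jejunum in ob/+, at 1031 against 1483 CPM (log2 -0.52, interval -0.68 to -0.37), and its ob/ob interval spanned no difference (-0.19, -0.45 to 0.06). miR-146b-5p was lower in colon in ob/ob, at 126 against 214 CPM (-0.74, -1.34 to -0.21), and its ob/+ interval spanned no difference (-0.23, -0.62 to 0.16). miR-146a-5p was lower in colon in ob/ob (-0.50, -0.66 to -0.35) and higher in ob/+ (0.19, 0.01 to 0.37).

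For each tested member, the most similar profiles were sought among the tested entries of at least 100 CPM, by the root mean square distance of log2 CPM centred over the 4 libraries. Nearest to miR-146a-5p of 148 others were miR-342-3p, miR-148b-3p and miR-185-5p, at distances of 0.12, 0.13 and 0.13 (median over all 0.62). Nearest to miR-21a-5p were miR-676-3p, miR-25-3p and miR-382-5p (0.12, 0.14 and 0.15, median 0.49). Nearest to miR-146b-5p were miR-100-5p, miR-23b-3p and miR-148a-3p (0.14, 0.15 and 0.15, median 0.43), and to miR-155-5p, of 149 others, miR-409-5p, miR-130a-3p and miR-25-3p (0.07, 0.08 and 0.08, median 0.43). These are descriptions over 4 libraries that share their scaling. The distances leave out counting error, which is wide for miR-155-5p, so its small distances do not make its neighbours better defined. It had 10 and 19 counts in ob/ob and ob/+ jejunum, and 7 and 28 in ob/ob and ob/+ colon.

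**Figure D4:**
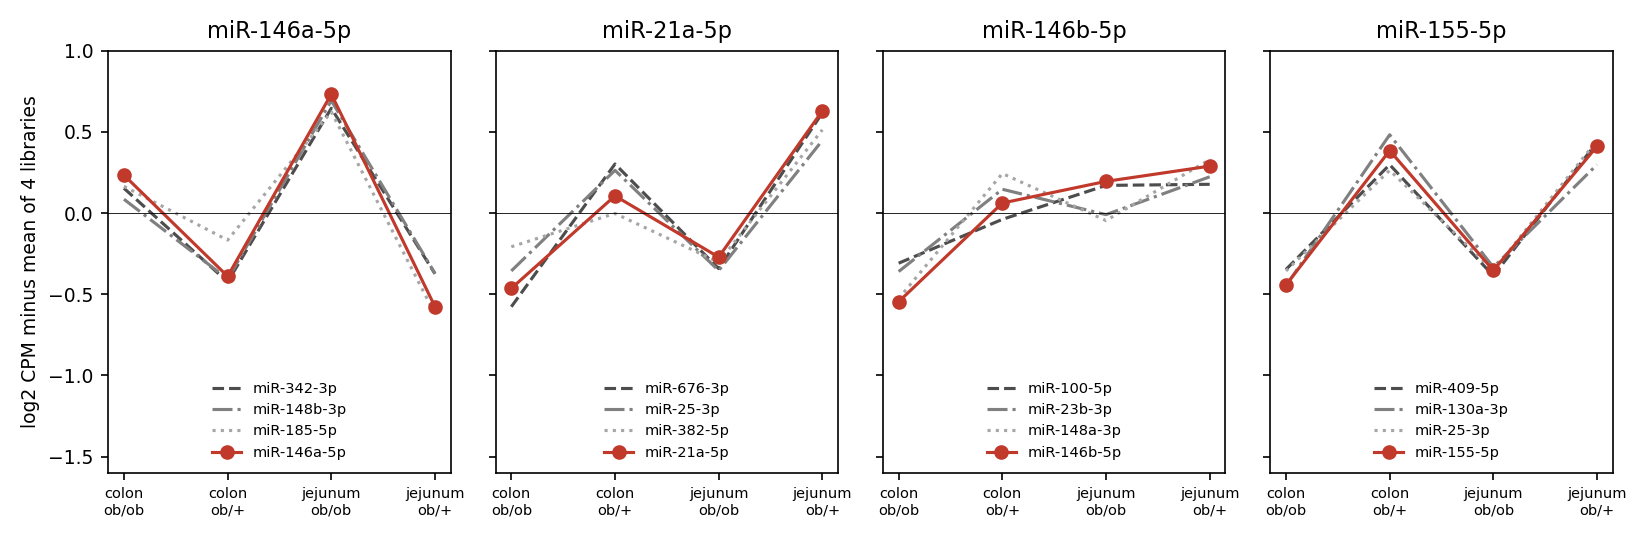
Log2 CPM minus the mean of the 4 libraries for each tested member (red) and its 3 nearest miRNAs (grey lines), by library; lines join the libraries only to show the shape. miR-146a-5p and miR-342-3p are both highest in ob/ob jejunum, and miR-21a-5p is highest in ob/+ jejunum. miR-155-5p is about level between the ob/+ libraries, at 43.4 CPM in jejunum and 42.5 CPM in colon.

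Other miRNAs linked to NF-kappaB and toll-like receptor responses were taken as a list. Of 11 listed, 10 were in the table and 6 were tested, of which 0 were higher, 1 was lower and 5 did not pass. Among all 322 entries 7.76% were higher and 10.2% lower. The list's median log2 change was -0.27, or -0.06 with library totals alone. The 1 that fell was miR-132-3p, an activity- and CREB-regulated miRNA, with 35 counts in ob/ob jejunum and 81 in ob/+ jejunum, and 19 in ob/ob colon and 109 in ob/+ colon (-1.30 ± 0.30, edgeR, adjusted p = 0.0480). DESeq2 did not call it (adjusted p = 0.0816), nor did 4 other alternatives, among them those without the ob/ob jejunum or the ob/ob colon library, and its adjusted p ranged over all alternatives between 1.07e-06 and 0.197. The abundant miR-125b-5p had a change of -0.46 ± 0.16 (edgeR, adjusted p = 0.0984). The rest of the tested list went both ways and did not pass. Changes were 0.75 for let-7e-5p and 0.47 for miR-9-5p (edgeR, adjusted p = 0.0553 and 0.308). They were -0.72 for miR-99b-5p and -0.08 for miR-125a-5p (adjusted p = 0.0516 and 0.720).

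Of 10 other hypoxia-linked miRNAs, all tested, 1 was higher, 1 lower and 8 did not pass. Among all 322 entries 7.76% were higher and 10.2% lower. The list's median was -0.15, or 0.06 with library totals alone. miR-322-5p, the mouse counterpart of human miR-424, rose (2.29 ± 0.52, edgeR, adjusted p = 0.0450) on 15 and 18 counts in the ob/ob jejunal and colonic libraries, against 5 and 5 in those of ob/+. DESeq2 gave it an adjusted p of 0.159, the highest of all alternatives (the lowest was 0.000300). It also missed the threshold scaled to mappable reads, with no abundance filter, and without the ob/ob jejunum, the ob/ob colon or the ob/+ colon library. The other arm of the miR-322 hairpin, miR-322-3p, which is not in the list, was also higher (1.51 ± 0.33, edgeR, adjusted p = 0.0396). miR-23a-3p fell (-1.09 ± 0.17, edgeR, adjusted p = 0.0189), with 3278 and 1982 counts in the ob/ob jejunal and colonic libraries and 6616 and 9600 in those of ob/+. That call was lost with no abundance filter and without the ob/ob jejunum or the ob/ob colon library (log2 changes -1.25 and -0.80). The p53 and DNA damage list, 3 of whose miRNAs also stand in the epithelial list, had 0 higher, 1 lower and 5 not passed of 6 tested, beside the same shares of all entries.

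Markers of other cells moved in the same libraries, in which 7.76% of all 322 entries passed as higher and 10.2% as lower. The 6 leukocyte entries in the table summed to 1421 CPM in ob/ob jejunum and 742 CPM in ob/+ jejunum. In colon they summed to 1061 CPM in ob/ob and 674 CPM in ob/+. As for miR-146a-5p, both ob/ob libraries were above both ob/+ libraries. This order is not particular to leukocyte markers. The muscle miRNA miR-145a-5p had it too (195483 and 135164 CPM in ob/ob jejunum and colon, against 131553 and 100503 CPM in ob/+), while miR-143-3p had not. Most of the leukocyte sum was miR-342-3p (1203 and 591 CPM in ob/ob and ob/+ jejunum, and 853 and 571 CPM in ob/ob and ob/+ colon). Of 5 tested, 1 rose, miR-342-5p (1.53 ± 0.34, edgeR, adjusted p = 0.0403), for which DESeq2 gave an adjusted p of 0.0975 and all alternatives lay between 0.000648 and 0.219. It also missed the threshold without the ob/ob jejunum or the ob/ob colon library (log2 changes 1.26 and 1.93). The other blood-cell markers were scarce. miR-142-5p had 22 and 17 counts in the ob/ob libraries (jejunum, colon), against 11 and 17 in the ob/+ ones, which is 52.2 and 53.5 CPM, against 25.1 and 25.8 CPM (log2 change 1.05, edgeR, adjusted p = 0.104), so that it too was higher in both ob/ob libraries. miR-223-3p had 3, 8, 4 and 2 counts and miR-142-3p 1, 4, 0 and 2, in the order of groups above. miR-150-5p went the other way, with 8 and 15 counts in the ob/ob libraries (jejunum, colon), against 25 and 22 in the ob/+ ones. All 4 fibroblast entries tested fell. The list summed to 963 and 888 CPM in the ob/ob libraries (jejunum, colon), against 4812 and 5001 CPM in the ob/+ ones. As for miR-21a-5p, both ob/ob libraries were below both ob/+ libraries. The sums of the epithelial, p53, hypoxia and NF-kappaB lists had the same order, so it is not particular to fibroblast markers. Of 6 epithelial entries tested 4 fell, and the list summed to 356 and 283 CPM in ob/ob, against 2088 and 897 CPM in ob/+. Of these lists, miR-199a-5p stood at -2.44 ± 0.21 (edgeR, adjusted p = 0.0111) and miR-200b-3p at -3.96 ± 0.56 (adjusted p = 0.0172), but without the ob/ob jejunum or the ob/ob colon library neither passed (adjusted p 0.0657 and 0.0754 for miR-199a-5p, 0.141 and 0.102 for miR-200b-3p). Of 2 endothelial and 5 muscle entries tested, 0 passed. The part of these cells in the members' values was not tested, and in pooled sorted cells fewer cells of a type and less RNA per cell cannot be told apart.

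**Figure D5:**
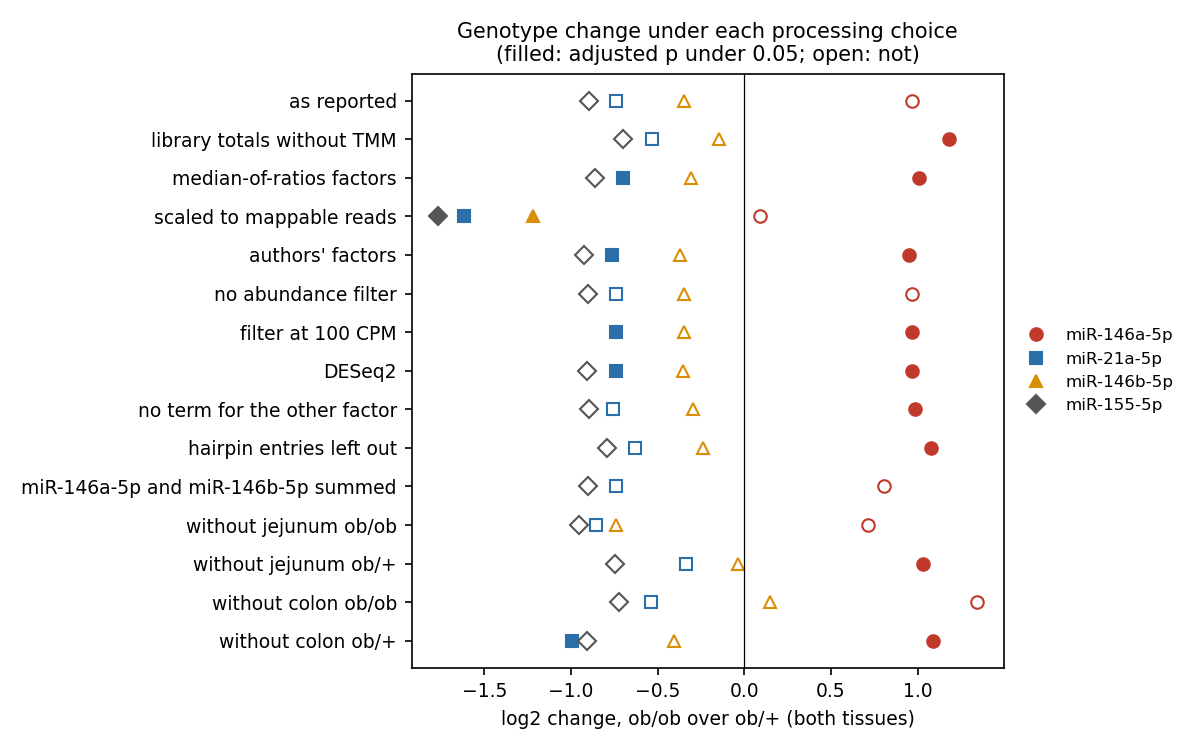
Log2 change of ob/ob over ob/+ for the 4 tested members (horizontal axis) under the reported fit and each alternative (rows); filled symbols have an adjusted p under 0.05. miR-146a-5p stays above 0 in each row, from 0.09 to 1.34, miR-21a-5p and miR-155-5p stay below 0, and miR-146b-5p turns to 0.15 without the ob/ob colon library.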

How the data were processed

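The data are 4 small RNA libraries from pooled, sorted GFP-positive cells, 1 for each tissue and genotype. Adapters at the 3′ end were trimmed, reads shorter than 15 nt were dropped, and mouse genome mm9 and miRBase 20 were used, per the file headers. Which aligner and counter were used, and how the authors' factors were set, is not given in the sources used here. Per the file headers the raw values are estimated counts as the authors deposited them, 87.7% to 89.8% of them whole per library (of those above 0). The authors' normalized signal is the raw value times 1 factor per library, and their deposited ratio is ob/ob over ob/+. Reads per processing step are other values that the authors deposited. The small intestinal columns were taken as jejunum.

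Counts were rounded and scaled by TMM. The 322 entries averaging 10 CPM or more were tested with edgeR 4.0.16 (quasi-likelihood, R 4.3.3), the genotype effect with tissue as a term and the reverse, with Benjamini-Hochberg adjustment over all 322. The residual had 1 degree of freedom. Each SE is the absolute log2 change divided by the square root of F, not a spread between animals. Ratios within a tissue or genotype used a prior count of 2 and have no test; with 1 library per group an interaction could not be tested. DESeq2 1.42.0 was an alternative. The fits were tested on simulated counts. The members and lists were chosen with earlier results of these data known. Named were all members, miRNAs sharing a seed, the 3 nearest profiles, and for each list those called and the 2 most abundant, of which the text gives a choice. The other tested NF-kappaB entries, the scarce leukocyte entries and miR-322-3p were named as well.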

Additional observations from a re-analysis of the deposited data

Results flagged for a closer look

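miR-146a-5p differed between tissues in opposite directions in the 2 genotypes. Colon over jejunum stood at -0.50 (log2) in ob/ob, at 1644 against 2325 CPM, and at 0.19 in ob/+, at 1065 against 935 CPM. Both counting intervals excluded 0 (-0.66 to -0.35 and 0.01 to 0.37). The difference between the genotypes was not tested, since 1 library per group leaves no residual. The signs were the same under the 6 other scalings and prior counts, from -0.50 to -0.21 in ob/ob and from 0.11 to 0.38 in ob/+. The intervals were computed with TMM only, and that of ob/+ excluded 0 narrowly, so it may span 0 under another scaling.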

How the results depend on the processing

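No paired analysis was possible because each group had 1 library and so no replicate numbers to pair; tissue was already a term of the genotype fit. For the genotype effect, 58 entries were called, against 115 with median-of-ratios factors, 123 with the authors' factors, 107 without hairpin entries, 176 scaled to mappable reads and 2 with no abundance filter; leaving out 1 library gave 2 to 88 (2 without the ob/ob jejunum or the ob/ob colon library, 88 without ob/+ jejunum). The median change over all entries was -0.12, and 0.10 with library totals alone. edgeR's prior degrees of freedom were 3.85, and infinite in the first 4 of these and at 100 CPM. Against 0 members called, 1 was called with library totals alone, with no tissue term and without hairpin entries, 2 with median-of-ratios factors, the authors' factors, 100 CPM and DESeq2, 3 scaled to mappable reads, and 0 to 2 with 1 library left out.

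miR-146a-5p passed in 9 of 13 alternatives (adjusted p 0.000300 to 0.777): 1.18 with library totals, 1.01 with median-of-ratios factors, 0.95 with the authors' factors, 0.97 at 100 CPM and in DESeq2, 0.99 with no tissue term, 1.08 without hairpin entries, and, with 1 library left out, 0.72 to 1.34, passing without ob/+ jejunum (1.03) and without ob/+ colon (1.09). miR-21a-5p passed in 6 of 14 (3.91e-07 to 0.353): -0.70 with median-of-ratios factors, -0.76 with the authors' factors, -0.74 at 100 CPM and in DESeq2, -1.62 scaled to mappable reads, and -0.995 to -0.33 with 1 library left out, passing without ob/+ colon (-0.995). miR-146b-5p and miR-155-5p passed only scaled to mappable reads, at -1.22 and -1.76; with 1 library left out miR-146b-5p ranged from -0.74 to 0.15 and miR-155-5p from -0.95 to -0.72. Scaled to mappable reads, miR-342-3p turned to -0.073, against 0.80, the leukocyte median to -0.07, against 0.80, and the muscle median to -0.22, against 0.66. The cause of these changes was not tested.

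For the tissue effect, 2 entries were called, neither a member, with median-of-ratios factors, the authors' factors and without hairpin entries, against 0. miR-155-5p turned to 0.026 with library totals and 0.094 scaled to mappable reads. With 1 library left out it ranged from -0.60 to 0.39, miR-146a-5p from -0.82 to 0.53, miR-21a-5p from -0.78 to 0.054 and miR-146b-5p from -0.81 to -0.25. Members at least 2-fold different in jejunum numbered 2, against 1, scaled to mappable reads or with the authors' factors, and 3 at 1.5-fold; in colon they numbered 3, against 0, scaled to mappable reads and at 1.5-fold, and 1, against 0, between the tissues of ob/ob at 1.5-fold. The depth limits miR-155-5p, at no more than 28 counts a library, miR-210-3p, at no more than 5, and the other 3 members that were not tested, at 0 or 1.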
